A study of Homo sapiens with 15 samples.

Results

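The RNA levels of 36 genes that encode collagen chains or the proteins that fold, modify, export, trim and crosslink them were followed in MDA-MB-231 spheroids. The genes were taken by symbol from a fixed list of 13 collagen chains and 23 enzymes and partner proteins. All 36 were among the 59608 symbols measured, and 35 of them passed the filter of a mean of at least 10 normalised reads over the 15 libraries, as did 15233 genes in all. P3H3, of the prolyl 3-hydroxylase family, was below it and was not tested. It had 14.3, 5.67 and 4.59 normalised reads at 500 nM against 6.53, 4.52 and 1.00 in DMSO. The list leaves out COL1A1, COL1A2, COL3A1 and COL5A2, which were used as fibroblast markers.

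MDA-MB-231 is a widely used line of human breast cancer cells of the triple-negative class. Its cells were grown without attachment until they had formed 3D spheroids and were then treated for 24 h. There were 5 groups of 3 libraries each, the vehicle (0.1% DMSO) followed by 4 concentrations of ZJ-101, 0.5, 5, 50 and 500 nM. Superstolide A, a macrolide that a marine sponge makes, is the parent compound, and ZJ-101 has a simpler structure. Each library was poly(A) RNA from all spheroids and loose cells of 1 multi-well plate, and each plate was named a biological replicate, so the p-values below measure the spread between plates of 1 line. Whether plates were seeded from separate cultures is not given in the labels.

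A collagen molecule is a triple helix of 3 chains that is built in the endoplasmic reticulum. There its prolines and lysines are hydroxylated, some hydroxylysines are galactosylated, the helix is held by the chaperone HSP47, and the long procollagen is loaded for export at exit sites organised by TANGO1. Outside the cell, proteinases trim the propeptides of fibrillar collagens, and lysyl oxidases crosslink the assembled molecules. Breast cancer cells can make matrix of their own, above all basement membrane and pericellular collagens, while fibrillar collagen I in tumours comes mostly from fibroblasts.

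Libraries held 7773325 to 10065633 reads in genes. Markers of the line were present in every library (vimentin, CD44, EGFR, KRT8, KRT18 and CAV1), and the progesterone receptor gene PGR was at 0 in all 15 libraries. ERBB2, EPCAM and CDH1, which were listed as absent or low, averaged 1210, 249 and 10.7 normalised reads. The summed level of 14 fibroblast markers was 3281 to 4626 normalised reads in 3 libraries, the second of 0.5 nM, the second of 5 nM and the first of 500 nM. It was 580.1 to 989 in the 12 other libraries. Of the 14 markers, 11 were higher in each of these 3 libraries than in every other library. In DMSO libraries the sum was 681 to 715 and 6 of the 14 markers, among them DCN and POSTN, were at 0 in every library. DCN, THY1 and POSTN were at 0 in every DMSO and 50 nM library. At 500 nM, replicates 2 and 3 had 4.72 and 6.88 normalised reads of DCN, 6.61 and 5.73 of THY1, and 3.78 and 2.29 of POSTN. MFAP5 and PDGFRB were not above DMSO there. DCN, THY1 and POSTN were also found in 0.5 nM replicate 3 and 5 nM replicate 1. Below, the 3 libraries with the highest sums are called those with fibroblast transcripts. Leaving them out does not remove all such transcripts. Values without them are given beside the results that they moved.

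Of the 35 genes tested, 29 fell at 500 nM against DMSO and 2 rose. Calls were made at an adjusted p below 0.05 (limma-trend on log2 of the normalised read count plus 1, Benjamini-Hochberg over all 15233 genes, two-sided), and by the same rule 16.2% of all genes fell and 16.2% rose at this dose. The median log2 fold change was -0.57 over the 35 genes, -0.86 over the 13 chains and -0.41 over the 22 enzymes and partners, beside -0.00 over all genes. Among chains 11 fell and 0 rose, and among enzymes and partners 18 fell and 2 rose. A fall of at least 1.5-fold was called for 17 of the 35 genes, 9 of them chains, beside 5.67% of all genes. All 3 libraries at 500 nM were below all 3 DMSO libraries for the 29 genes that fell, an arrangement found for 20.4% of all genes. Without the 3 libraries with fibroblast transcripts, 28 of the 35 genes fell and 2 rose at 500 nM (median log2 -0.70), beside 14.6% and 14.7% of all genes, and CRTAP was the fall that was lost. These are levels in bulk RNA, so fewer cells that express a gene and less RNA per cell cannot be told apart.

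The lower doses moved fewer of these genes. At 0.5 nM none was called by limma-trend (2 higher and 2 lower at an unadjusted p under 0.05), nor by DESeq2 or edgeR, beside 0.0722% of all genes called in either direction. At 5 nM, 4 genes rose, P4HA2, COLGALT1, LOX and LOXL2, beside 3.63% of all genes. None fell by limma-trend (3 lower at an unadjusted p under 0.05), DESeq2 or edgeR, beside 3.28%. At 50 nM, 13 fell and 4 rose, beside 9.66% and 10.9% of all genes, and 6 of the 13 chains were among those that fell. Every comparison with DMSO uses the same 3 DMSO libraries.

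**Figure D1:**
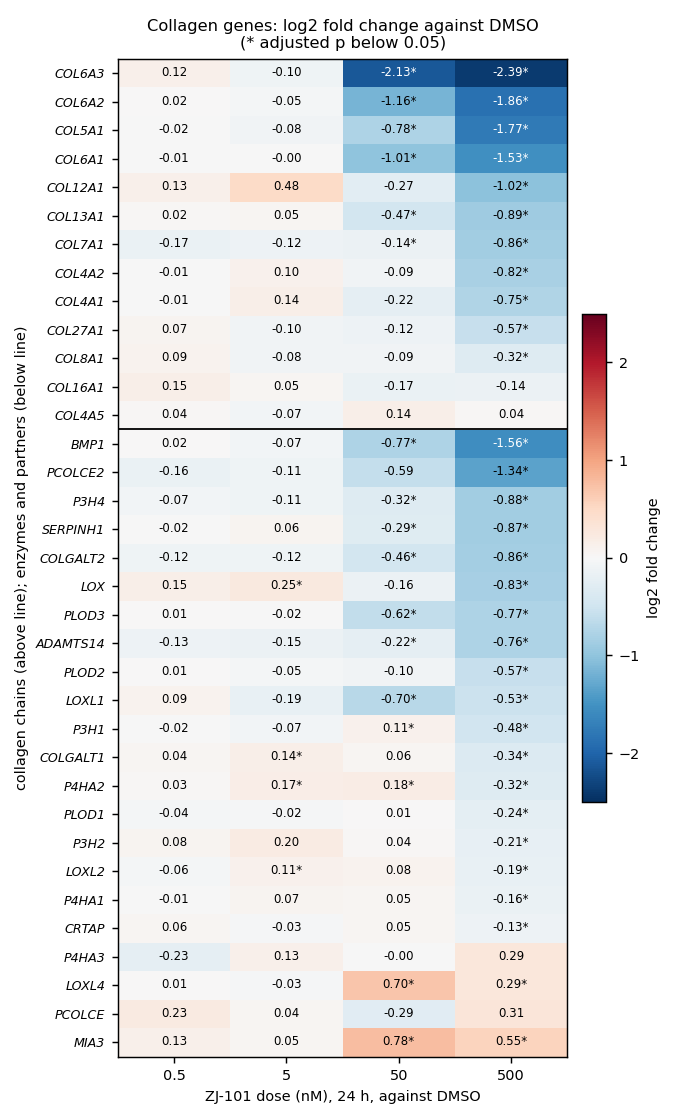
Log2 fold change against DMSO for the 35 tested genes (rows, collagen chains above the line, enzymes and partners below it) at 0.5, 5, 50 and 500 nM ZJ-101 (columns), with asterisks at adjusted p below 0.05 (limma-trend). At 500 nM the colours are blue and starred for 29 genes, and LOXL4 and MIA3 are the 2 starred red cells.

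Collagen VI forms beaded filaments around cells and at basement membranes, and its common form joins the products of COL6A1, COL6A2 and COL6A3. All 3 genes fell, and by 50 nM each was at 49.6% of its DMSO mean or less. COL6A1 (chromosome 21, 45981770 to 46005050, plus strand on hg38) was measured at 7349.6, 6563 and 6994 normalised reads in DMSO spheroids. The 50 nM libraries had 3319.6, 3504 and 3554, and the 500 nM libraries 2683, 2274 and 2312. At 0.5 and 5 nM its 6 libraries lay between 6838 and 7080, within the range of the DMSO libraries. The 50 nM and 500 nM libraries overlapped neither DMSO nor each other. The level was 2.01-fold lower at 50 nM and 2.88-fold lower at 500 nM (log2 fold change -1.53 ± 0.06, SE, adjusted p = 1.09e-09, limma), and the step between these doses was called as well (log2 -0.52, adjusted p = 8.72e-05, limma).

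COL6A2, the neighbour of COL6A1 on chromosome 21 (chromosome 21, 46098112 to 46132848, plus strand), had 3251, 3072 and 3206 normalised reads in DMSO spheroids, 1383, 1472 and 1416 at 50 nM and 1072, 805 and 772 at 500 nM. It was 3.63-fold lower at 500 nM (log2 -1.86 ± 0.11, adjusted p = 6.35e-08, limma). Its highest 500 nM library was replicate 1, which is 1 of the 3 with fibroblast transcripts. Without those 3 libraries the fall was 4.03-fold. The part of the fibroblast transcripts in this difference was not tested beyond leaving the libraries out.

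COL6A3 encodes the longest of the 3 chains and had the largest fall of the 35 genes at both 50 and 500 nM. It had 571, 471 and 452 normalised reads in DMSO spheroids, 120.4, 100.5 and 118 at 50 nM and 194, 58.6 and 72.2 at 500 nM. The 500 nM libraries were all under those of DMSO but lay on both sides of those at 50 nM, with replicate 1 the highest. At 500 nM the fall was 5.24-fold (log2 -2.39 ± 0.37, adjusted p = 0.000417, limma) with all libraries and 7.51-fold (log2 -2.91, adjusted p = 2.79e-40, limma) without the 3 libraries with fibroblast transcripts. Those libraries were also the highest of their dose for COL6A3 at 0.5 nM (481, 648 and 504) and at 5 nM (406, 617 and 391). The step from 50 to 500 nM was not called with all libraries (log2 -0.26, 95% interval -1.09 to 0.57, adjusted p = 0.781, limma), and without the 3 it was (log2 -0.78, adjusted p = 2.31e-09, limma). Likewise the 5 nM level was called lower than DMSO only without them, by 1.24-fold (adjusted p = 0.0489, limma).

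The promoter of COL6A2 is shown because, after COL6A3, this gene had the largest fall of the 35. These are the 250 bases before its RefSeq start (GRCh38.p14, chr21:46097862-46098111, plus strand), and the capitals mark the letters TATAAA, which begin 32 bases before the start.
COL6A2 promoter: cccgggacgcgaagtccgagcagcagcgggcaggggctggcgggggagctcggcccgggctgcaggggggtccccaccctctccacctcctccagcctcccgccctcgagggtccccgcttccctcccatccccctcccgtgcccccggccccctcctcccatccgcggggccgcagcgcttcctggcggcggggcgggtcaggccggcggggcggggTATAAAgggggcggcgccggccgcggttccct
The motifs named in this report were chosen after these promoters had been read. TATAAA, searched on both strands in the windows of 29 of the 36 genes that had an entry, was found in 5 of them (COL6A2, COL7A1, COL13A1, P4HA1 and MIA3) and in 10.7% of 35116 RefSeq promoters of this length. Here and below, the 29 genes had 34 windows, and a gene was counted if any of its windows held the letters. The shares are of single windows, so the 2 are not counted alike. The letters GGGGCGGGG, a GC box that ends where the TATAAA begins of COL6A2, were in the windows of 8 of the 29 and in 15.1% of all promoters. Windows of COL6A1, COL8A1, BMP1, P3H4, P4HA3, LOXL2 and COLGALT2 were not used here.

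**Figure D2:**
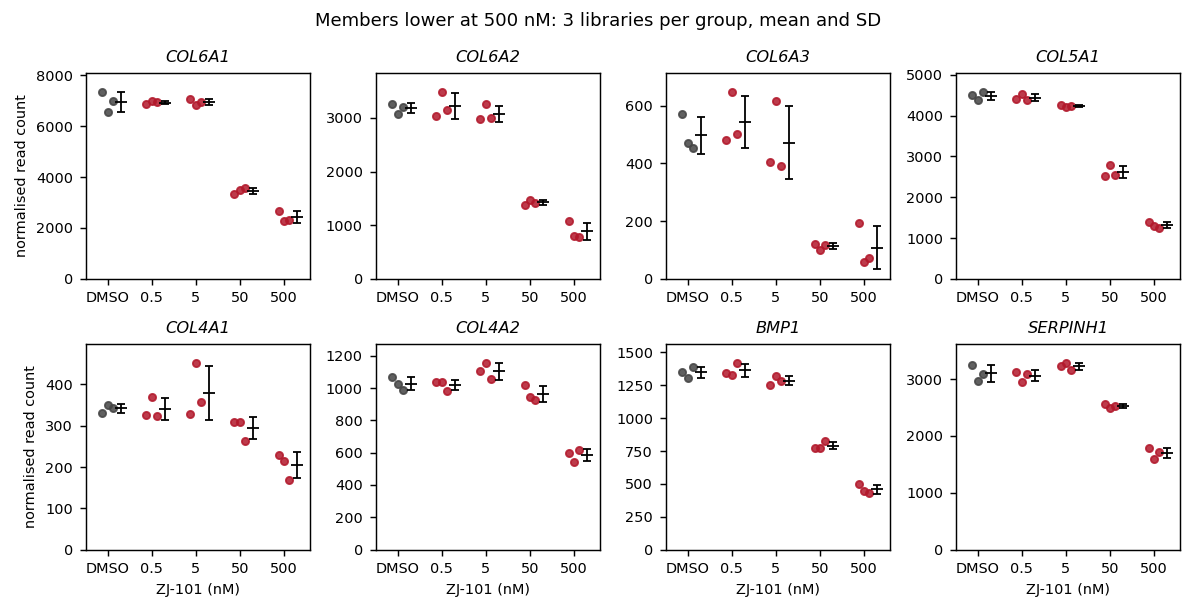
Normalised read counts (linear axes from 0) of 8 genes in every library, with the mean and SD of 3 libraries beside the points, from DMSO to 500 nM ZJ-101. COL6A1, COL6A2, COL6A3, COL5A1, COL4A1, BMP1 and SERPINH1 are lower at 50 nM than in all DMSO libraries. COL4A2 at 50 nM overlaps DMSO and is 541 to 613 at 500 nM. The highest point of COL6A3 at 0.5, 5 and 500 nM is a library with fibroblast transcripts.

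Of the 2 fibrillar chains, COL5A1 fell at both higher doses and COL27A1 at 500 nM. COL5A1 (chromosome 9, 134641803 to 134844843, plus strand) encodes the main chain of collagen V, which sets the width of collagen I fibrils, and it is a gene that the study itself named. It had 4507, 4383 and 4578 normalised reads in DMSO spheroids, 2512, 2792 and 2553 at 50 nM and 1392, 1304 and 1249 at 500 nM. The 3 groups did not overlap, and the level fell at each of these steps. The fall was 1.72-fold at 50 nM and 3.41-fold at 500 nM (log2 -1.77 ± 0.03, adjusted p = 1.43e-63, limma). At 5 nM its libraries were 4268, 4209 and 4226, all below DMSO but not called (log2 -0.08, adjusted p = 0.132, limma). COL27A1, a fibrillar chain best known from cartilage, had 144 to 191 at 500 nM against 220.0 to 269 in DMSO (1.49-fold lower, adjusted p = 1.3e-07, limma).

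Collagen IV is the network collagen of basement membranes, and its most widespread form joins chains from COL4A1 and COL4A2. Both fell at 500 nM, while COL4A5, a chain of the kidney glomerular basement membrane among others, was not called against DMSO at any dose. COL4A2 (chromosome 13, 110305812 to 110513209, plus strand) had 596, 541 and 613 normalised reads at 500 nM against 1069, 1028 and 987 in DMSO, 1.76-fold lower (log2 -0.82 ± 0.05, adjusted p = 2.21e-28, limma). COL4A1 (minus strand of the same locus, 110148963 to 110307157) had 229.5, 215 and 169.7 at 500 nM against 331, 351 and 344 in DMSO, 1.68-fold lower (log2 -0.75 ± 0.11, adjusted p = 1.32e-05, limma). For both genes the 500 nM libraries lay below every DMSO library. At 50 nM neither was called, with log2 -0.09 for COL4A2 (adjusted p = 0.207, limma) and log2 -0.22 for COL4A1 (adjusted p = 0.2, limma). COL4A1 was called lower at 50 nM with the replicate number as a block (adjusted p = 0.0463, limma), with the 2 groups fitted alone (adjusted p = 0.0321) and without the 3 libraries with fibroblast transcripts (adjusted p = 0.0395). It was also called lower at 50 nM than at 5 nM (log2 -0.36, adjusted p = 0.0293, limma), a call lost without 5 nM replicate 2 (log2 -0.22, adjusted p = 0.0976), 5 nM replicate 3 (log2 -0.39, adjusted p = 0.0515) or 50 nM replicate 3 (log2 -0.28, adjusted p = 0.1).

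COL4A1 and COL4A2 lie head to head and share the stretch between their starts, which is shown because both genes moved down at the last step. It covers the bases between the RefSeq starts of COL4A1 and COL4A2 (GRCh38.p14, chr13:110307158-110307283, plus strand, in the reading direction of COL4A2). GENCODE gives COL4A2 a further start upstream of this stretch. The capitals mark the letters CCAAT, which begin 105 bases before the RefSeq start of COL4A2.
COL4A1-COL4A2 interval: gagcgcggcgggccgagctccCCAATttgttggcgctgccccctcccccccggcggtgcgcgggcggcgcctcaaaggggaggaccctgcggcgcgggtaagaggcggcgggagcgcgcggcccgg
CCAAT on either strand was in the promoter windows of 8 of the 29 genes, COL4A1, COL4A2, COL4A5, LOX, P3H2, P4HA2, PLOD2 and SERPINH1, and in 32% of all promoters. COL4A5 also holds these letters and had 283, 247 and 272 normalised reads at 500 nM against 271, 258 and 251 in DMSO, groups that overlapped (log2 0.04, 95% interval -0.12 to 0.20).

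COL7A1 and COL8A1, the other chains that form networks or anchors, fell mainly at the top dose. COL7A1 (chromosome 3, 48564073 to 48595329, minus strand) encodes collagen VII, the anchoring fibril below squamous epithelia. It had 1680.3, 1609 and 1615 normalised reads in DMSO spheroids, 1450.1, 1533 and 1464 at 50 nM and 939, 913 and 846 at 500 nM. Its 50 nM libraries were just under those of DMSO (1.10-fold lower, log2 -0.14, adjusted p = 0.0111, limma). This call was lost without DMSO replicate 1 (log2 -0.12, adjusted p = 0.0664) or 50 nM replicate 1 (log2 -0.13, adjusted p = 0.0707). All libraries at 0.5 and 5 nM were also below DMSO, by a like amount that was not called (log2 -0.17 and -0.12, adjusted p = 0.108 and 0.0884, limma). The level hardly moved from 5 to 50 nM (log2 -0.02). At 500 nM COL7A1 was 1.82-fold lower (log2 -0.86 ± 0.04, adjusted p = 1.66e-33, limma). COL8A1, a short-chain collagen of vessel walls and the cornea, fell 1.25-fold at 500 nM (adjusted p = 0.00801, limma) and 1.35-fold without the 3 libraries with fibroblast transcripts.

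COL13A1 spans the plasma membrane and had 954, 931 and 960.3 normalised reads in DMSO spheroids, 681, 729 and 652 at 50 nM and 515, 543 and 475 at 500 nM. It fell 1.38-fold at 50 nM and 1.86-fold at 500 nM (log2 -0.89 ± 0.05, adjusted p = 2.29e-29, limma), with no overlap between these 3 groups. The fibril-associated collagen XII gene COL12A1 (chromosome 6, 75084326 to 75206267, minus strand) went both ways along the series. It had 904, 916 and 892 in DMSO, 924, 1133 and 929 at 0.5 nM, 1238, 1380.4 and 1163 at 5 nM. Its 50 nM libraries had 775, 806 and 673, and its 500 nM libraries 568, 359 and 429. All libraries at 0.5 and 5 nM were above DMSO, and all at 50 and 500 nM below it. The fall at 500 nM was 2.03-fold (log2 -1.02 ± 0.15, adjusted p = 0.000256, limma). The higher level at 5 nM was not called (log2 0.48 ± 0.15, adjusted p = 0.101, limma), although DESeq2 called it (adjusted p = 0.0296). So did limma with the 2 groups fitted alone (adjusted p = 5.66e-11) and without the 3 libraries with fibroblast transcripts (log2 0.41, adjusted p = 1.42e-05). The lower level at 50 nM was likewise called only without those libraries or with the 2 groups fitted alone (log2 -0.27 in each, adjusted p = 0.00025 and 0.000116, beside 0.275 with all libraries, limma). COL16A1, the other fibril-associated chain, had 34.9 to 40.0 normalised reads at 500 nM against 28.3 to 52.2 in DMSO, ranges that overlapped (log2 -0.14, 95% interval -0.57 to 0.28).

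Prolyl 4-hydroxylases stabilise the triple helix, and P4HA1, P4HA2 and P4HA3 encode their catalytic subunits. P4HA2 had 1177, 1134 and 1096 normalised reads in DMSO spheroids, 1285, 1261 and 1285 at 5 nM and 1307, 1304 and 1255 at 50 nM. Its 500 nM libraries had 913, 911 and 900.2. It was above DMSO at 5 and 50 nM and below it at 500 nM, with no overlap in any of the 3 comparisons. It rose 1.12-fold at 5 nM (adjusted p = 0.0053, limma) and 1.13-fold at 50 nM (adjusted p = 0.000575, limma), and it fell 1.25-fold at 500 nM (log2 -0.32 ± 0.04, adjusted p = 4.72e-10, limma). The call at 5 nM was lost without DMSO replicate 3 (log2 0.14, adjusted p = 0.0681), and 5.41% of the exon bases of P4HA2 lie opposite an antisense gene. P4HA1 fell 1.11-fold at 500 nM (adjusted p = 0.0048, limma), which was lost without 500 nM replicate 3 (log2 -0.13, adjusted p = 0.0538). P4HA3 had 80.3 to 106 at 500 nM against 72.3 to 78.6 in DMSO, a higher level that was not called (log2 0.29, 95% interval -0.00 to 0.57).

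Lysyl hydroxylases prepare lysines for crosslinking and for sugar. PLOD3, which encodes the member that also has glycosyltransferase activity, had 1922, 1685 and 1706 normalised reads in DMSO spheroids, 1183, 1142 and 1116 at 50 nM and 1013, 1021 and 1069 at 500 nM. Most of its fall was present at 50 nM (1.54-fold), and it was 1.71-fold lower at 500 nM (log2 -0.77 ± 0.04, adjusted p = 1e-30, limma). The further step was small (log2 -0.15, adjusted p = 0.00836, limma) and was lost without 500 nM replicate 1 (log2 -0.13, adjusted p = 0.0543) or 50 nM replicate 1 (log2 -0.13, adjusted p = 0.081). PLOD2, known for hydroxylating the telopeptides of fibrillar collagen, had 489 to 519 at 500 nM against 694 to 814 in DMSO, 1.49-fold lower (adjusted p = 5.77e-16, limma). PLOD1 fell least of the family, 1.18-fold (adjusted p = 4.95e-10, limma). PLOD1 and PLOD2 were not called at 50 nM.

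COLGALT1 and COLGALT2 encode the enzymes that place galactose on hydroxylysine. COLGALT2 had 651, 653 and 705 normalised reads in DMSO spheroids, 462, 522 and 479 at 50 nM and 355, 396 and 359 at 500 nM, and it fell 1.81-fold at the top dose (log2 -0.86 ± 0.06, adjusted p = 5.36e-24, limma). COLGALT1, the widely expressed enzyme, had 2344, 2195 and 2205 in DMSO, 2524, 2425 and 2497 at 5 nM and 1789.9, 1792 and 1752 at 500 nM. It rose 1.10-fold at 5 nM (adjusted p = 0.00309, limma), and of the 4 rises at that dose only this held in every alternative run. At 500 nM it fell 1.26-fold (log2 -0.34 ± 0.03, adjusted p = 1.29e-14, limma). The difference between the 2 genes was not tested.

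Prolyl 3-hydroxylation is carried out by P3H1 in a complex with CRTAP and by P3H2 on basement membrane collagen. P3H3 and P3H4 are grouped here by family name, not by that activity. P3H1 had 1571, 1569 and 1579 normalised reads in DMSO spheroids, 1719, 1697 and 1689.9 at 50 nM and 1112, 1153 and 1120.3 at 500 nM. The 50 nM libraries were above all DMSO libraries and those at 500 nM below them. P3H1 was 1.39-fold lower at 500 nM (log2 -0.48 ± 0.04, adjusted p = 2.65e-19, limma) and 1.08-fold higher at 50 nM (adjusted p = 0.0315, limma). The rise at 50 nM was lost with no filter (adjusted p = 0.0739), under DESeq2 (adjusted p = 0.0602) and without any 1 of the 3 DMSO or the 3 libraries at 50 nM (log2 0.11 to 0.12, adjusted p = 0.0585 to 0.107, limma). Against 5 nM it was called in every alternative (log2 0.18, adjusted p = 0.000308, limma).

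P3H4 had 255, 225 and 259 normalised reads in DMSO spheroids, 204, 190.4 and 196 at 50 nM and 147, 143 and 114 at 500 nM, and fell 1.84-fold at 500 nM (log2 -0.88 ± 0.09, adjusted p = 9.28e-14, limma). Its 1.25-fold fall at 50 nM (adjusted p = 0.00757, limma) was lost without DMSO replicate 3 (log2 -0.28, adjusted p = 0.0536). CRTAP and P3H2 had the smallest and least stable falls of the complexes. CRTAP fell 1.09-fold at 500 nM (adjusted p = 0.000662, limma), and without 500 nM replicate 1 it was at log2 -0.08 (adjusted p = 0.0631). P3H2 fell 1.16-fold (adjusted p = 0.0416, limma), and without 500 nM replicate 3 it was at log2 -0.10 (adjusted p = 0.455). The P3H2 call was also lost without any 1 of the DMSO libraries (adjusted p = 0.059 to 0.146, limma), under DESeq2 (adjusted p = 0.168) and under edgeR (adjusted p = 0.0613).

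The chaperone and the export factor went opposite ways. SERPINH1 (chromosome 11, 75562056 to 75572783, plus strand) encodes HSP47, a chaperone of procollagen that is induced by heat shock. It had 3252, 2963 and 3086 normalised reads in DMSO spheroids, 2570.1, 2489 and 2521 at 50 nM and 1784, 1600.1 and 1722 at 500 nM, 3 groups that did not overlap. The fall was 1.23-fold at 50 nM (adjusted p = 2.09e-11, limma) and 1.82-fold at 500 nM (log2 -0.87 ± 0.04, adjusted p = 1.3e-40, limma).

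MIA3 (chromosome 1, 222618097 to 222668007, plus strand) encodes TANGO1, the receptor that loads procollagen at exit sites of the endoplasmic reticulum. It had 827, 804 and 814 normalised reads in DMSO spheroids, 922, 891 and 861 at 0.5 nM, 829, 878 and 832 at 5 nM. Its 50 nM libraries had 1409, 1372 and 1419.8, and its 500 nM libraries 1211, 1099.5 and 1281. Every treated library was above every DMSO library, and the highest levels were at 50 nM. MIA3 rose 1.72-fold at 50 nM (log2 0.78 ± 0.05, adjusted p = 7.56e-28, limma) and 1.47-fold at 500 nM (log2 0.55 ± 0.05, adjusted p = 7.36e-19, limma). The 500 nM level was below that at 50 nM (log2 -0.23, adjusted p = 0.000101, limma), and the rises at 0.5 and 5 nM were not called (log2 0.13 and 0.05). In MIA3, 3.98% of the exon bases lie opposite an antisense gene.

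Stretches upstream of a RefSeq start of SERPINH1 and MIA3 are shown because the 2 genes serve the same cargo and moved apart. Each is the 250 bases before that start (GRCh38.p14, plus strand), chr11:75562003-75562252 for SERPINH1 and chr1:222644079-222644328 for MIA3. The MIA3 stretch lies inside the gene as GENCODE draws it, upstream of an internal start only, and the SERPINH1 stretch reaches past the first GENCODE start of that gene. Counts per gene do not show which start was used. The capitals mark TTCNNGAANNTTC in SERPINH1, 3 units of the heat shock element, 76 bases before the start, and TGACGTG in MIA3, the core of the unfolded protein response element, 27 bases before the start.
SERPINH1, before its RefSeq start: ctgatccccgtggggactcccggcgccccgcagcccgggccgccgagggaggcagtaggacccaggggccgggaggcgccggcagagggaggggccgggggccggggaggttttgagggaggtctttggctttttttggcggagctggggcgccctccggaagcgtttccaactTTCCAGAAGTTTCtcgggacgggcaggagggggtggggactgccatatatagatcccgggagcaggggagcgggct
MIA3, before an internal start: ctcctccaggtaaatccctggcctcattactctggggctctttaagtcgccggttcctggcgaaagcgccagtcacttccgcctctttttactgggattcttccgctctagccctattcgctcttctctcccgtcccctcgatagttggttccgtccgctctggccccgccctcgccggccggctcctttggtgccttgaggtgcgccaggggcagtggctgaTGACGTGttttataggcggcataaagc
Searched on both strands, TTCNNGAANNTTC was in 0.441% of the 35116 promoters and in SERPINH1 alone among the 29 genes. TGACGTG was in 1.68% of promoters and in MIA3 alone among the 29. The TATAAA letters of MIA3 lie on the minus strand and do not overlap its TGACGTG.

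Among the genes of propeptide processing, BMP1 fell most. BMP1 (chromosome 8, 22165140 to 22212326, plus strand) encodes the procollagen C-proteinase, which also activates lysyl oxidase. It had 1354, 1304 and 1386 normalised reads in DMSO spheroids, 775, 774 and 824 at 50 nM and 496, 448 and 430.0 at 500 nM, with no overlap between the groups. It fell 1.70-fold at 50 nM and 2.94-fold at 500 nM (log2 -1.56 ± 0.05, adjusted p = 7.87e-52, limma), the largest fall among the enzymes. In BMP1, 6.52% of the exon bases also belong to another gene on the same strand.

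ADAMTS14, an N-proteinase of procollagen, had 561, 578 and 616 normalised reads in DMSO spheroids, 518, 525 and 463 at 50 nM and 353, 343 and 335 at 500 nM. It fell 1.70-fold at 500 nM (log2 -0.76 ± 0.06, adjusted p = 1.03e-19, limma). Its 1.17-fold fall at 50 nM (log2 -0.22) was lost without DMSO replicate 3 (log2 -0.18, adjusted p = 0.062) or 50 nM replicate 3 (log2 -0.16, adjusted p = 0.0998). At 0.5 and 5 nM it was at log2 -0.13 and -0.15, not called (adjusted p = 0.593 and 0.165, limma). PCOLCE2 enhances the C-proteinase and was near the filter, with 4.10, 4.72 and 6.88 normalised reads at 500 nM against 14.2, 14.5 and 15.1 in DMSO. The fall was 2.54-fold (log2 -1.34 ± 0.38, adjusted p = 0.00288, limma). PCOLCE, the other enhancer, had 71.7, 43.5 and 31.0 at 500 nM against 33.8, 38.8 and 38.2 in DMSO and was not called (log2 0.31, 95% interval -0.44 to 1.06). Its highest libraries at 0.5, 5 and 500 nM were those with fibroblast transcripts, 1.65 to 2.25 times the next of the dose. Without those libraries PCOLCE was at log2 -0.01 at 500 nM, and 16.8% of its exon bases lie opposite an antisense gene.

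**Figure D3:**
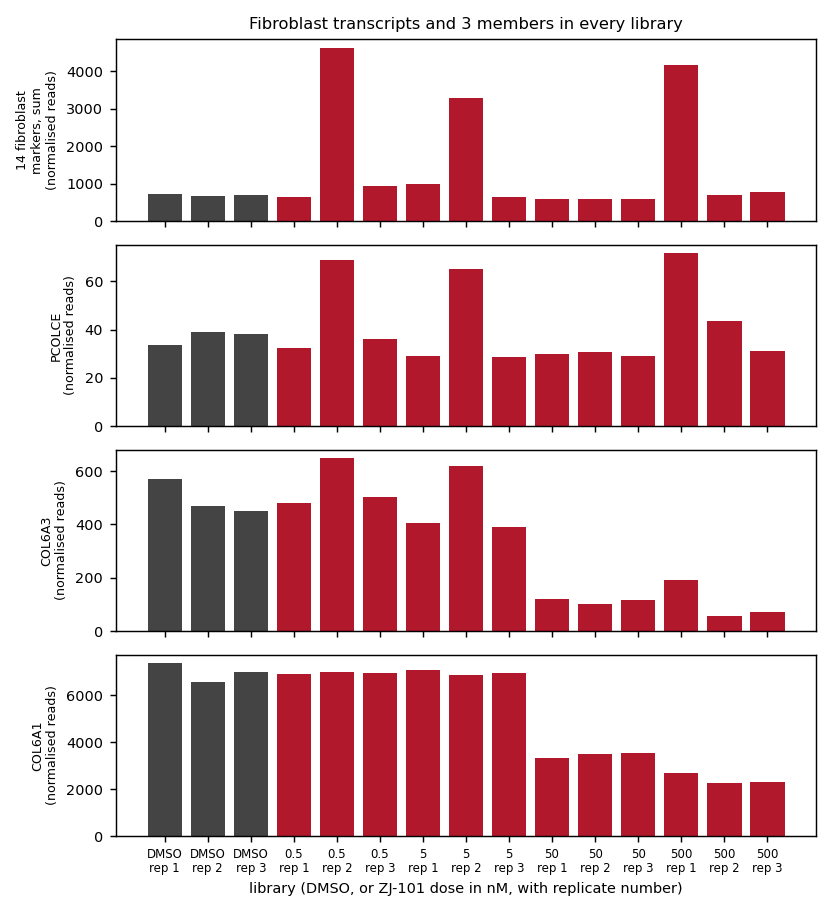
Summed normalised reads of 14 fibroblast markers (top) and normalised reads of PCOLCE, COL6A3 and COL6A1 (below) in each of the 15 libraries, grey for DMSO and red for ZJ-101. The 3 libraries with the most fibroblast transcripts, 1 each at 0.5, 5 and 500 nM, stand out from their dose in the top 3 panels. COL6A1 stays between 6838 and 6980 in the first 2 of these libraries.

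The 3 libraries with fibroblast transcripts were above both other libraries of their dose for 7 of the 36 genes, PCOLCE, COL6A3, COL12A1, COL8A1, COL6A2, COL4A1 and LOX. The share of all genes with this arrangement was not counted, so the number is not read as a result about these genes. The ratio was at least 1.29 for COL6A3 and 1.65 for PCOLCE and at least 1.04 for the other 5. Without these libraries, all 6 of those genes that fell at 500 nM were still called lower. Each fold was then larger, which follows from how the genes were picked. Their highest 500 nM library was left out, and no DMSO library was. The log2 fold change of COL12A1 was then -1.20, and COL4A1 was 1.78-fold and LOX 1.90-fold lower. COL6A1 and LOXL1 were not the highest in all 3 of these libraries, but 500 nM replicate 1 was their highest library at that dose. They were 3.04-fold and 1.62-fold lower without the 3 libraries. The part of fibroblast transcripts in the remaining differences was not tested.

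Lysyl oxidases start the crosslinking of collagens and elastin, and this family held both directions. LOX itself had 844, 843 and 809 normalised reads in DMSO spheroids, 969.8, 1081 and 921 at 5 nM and 738, 744 and 757 at 50 nM. Its 500 nM libraries had 532, 433 and 444. Its 5 nM libraries were above DMSO and those at 50 and 500 nM below. The 50 nM level was not called (log2 -0.16, adjusted p = 0.114, limma) except with the 2 groups fitted alone (adjusted p = 0.0204) or without the libraries with fibroblast transcripts (adjusted p = 0.0225). The fall at 500 nM was 1.78-fold (log2 -0.83 ± 0.07, adjusted p = 1.91e-11, limma). The 1.19-fold rise at 5 nM (log2 0.25, adjusted p = 0.0215, limma) was lost without any 1 of the DMSO libraries or without 5 nM replicate 1 or 2 (log2 0.18 to 0.26, adjusted p = 0.0621 to 0.109).

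LOXL4 (chromosome 10, 98247690 to 98268194, minus strand) and MIA3 were the 2 genes that rose at 500 nM. LOXL4 had 935, 834 and 869.9 normalised reads in DMSO spheroids, 804, 890.2 and 885 at 5 nM and 1432, 1453 and 1396 at 50 nM. Its 500 nM libraries had 1069, 1067 and 1082. The libraries at 50 and 500 nM were above all DMSO libraries, with those at 500 nM between DMSO and 50 nM. LOXL4 rose 1.62-fold at 50 nM (log2 0.70 ± 0.05, adjusted p = 7.12e-25, limma) and 1.22-fold at 500 nM (log2 0.29 ± 0.05, adjusted p = 1.68e-07, limma). From 50 to 500 nM it fell (log2 -0.41, adjusted p = 3.94e-12, limma). These calls held in every alternative.

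LOXL1, an oxidase of elastic fibres, had 134, 125 and 129 normalised reads in DMSO spheroids, 79.9, 75.6 and 81.5 at 50 nM and 112, 86.9 and 72.2 at 500 nM. It fell 1.63-fold at 50 nM (adjusted p = 4.26e-06, limma) and 1.45-fold at 500 nM (log2 -0.53 ± 0.13, adjusted p = 0.000324, limma), and the 500 nM libraries lay on both sides of those at 50 nM. An antisense gene, LOXL1-AS1, overlaps 9.21% of its exon bases. LOXL2, which acts on collagen IV, had 2895, 2849 and 2859.7 in DMSO, 3106, 3047 and 3107 at 5 nM and 2552, 2459 and 2553 at 500 nM. It fell 1.14-fold at 500 nM (adjusted p = 1.37e-06, limma). Its 1.08-fold rise at 5 nM (adjusted p = 0.0313, limma) was lost under DESeq2 (adjusted p = 0.0566), with the 2 groups fitted alone (adjusted p = 0.084) and without DMSO replicate 2 or 3 or 5 nM replicate 1 or 3 (log2 0.10, adjusted p = 0.0842 to 0.101).

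**Figure D4:**
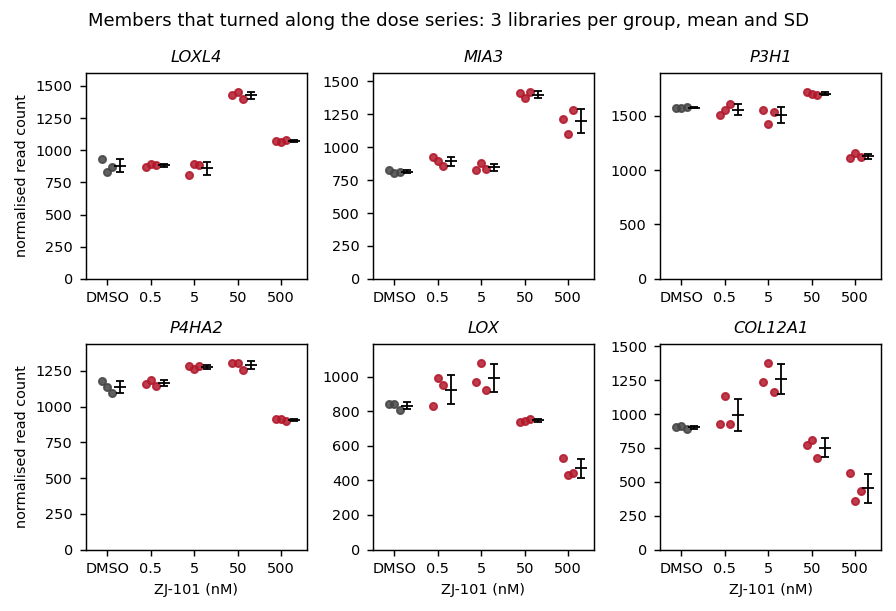
Normalised read counts (linear axes from 0) of LOXL4, MIA3, P3H1, P4HA2, LOX and COL12A1 in every library from DMSO to 500 nM ZJ-101, with the mean and SD of 3 libraries beside the points. LOXL4 and MIA3 peak at 50 nM and stay above DMSO at 500 nM, whereas P3H1, P4HA2, LOX and COL12A1 end below it.

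The steps between neighbouring doses, which do not use the DMSO libraries as reference, place the changes along the series. Their spread still came from the fit of all 15 libraries. From 0.5 to 5 nM, LOXL2 and P4HA2 rose, beside 3.69% of all genes, and none fell by limma-trend (2 lower at an unadjusted p under 0.05), DESeq2 or edgeR, beside 3.37%. This rise of P4HA2 was lost without any 1 library of either dose except 5 nM replicate 2 (log2 0.13 to 0.15, adjusted p = 0.0556 to 0.126). COLGALT1 was called higher without 5 nM replicate 2 (log2 0.12, adjusted p = 0.0457). From 5 to 50 nM, 14 of the 35 genes fell and 3 rose (LOXL4, MIA3 and P3H1), beside 8.96% and 9.51% of all genes. From 50 to 500 nM, 27 fell, beside 7.04%, and none rose by limma-trend (0 higher at an unadjusted p under 0.05), DESeq2 or edgeR, beside 5.65%. Of the 29 genes lower than DMSO at 500 nM, 12 fell at both of these steps, among them COL5A1, COL6A1, COL6A2, COL13A1, BMP1, SERPINH1 and PLOD3. Another 12 fell at the last step alone, among them COL7A1, COL27A1, PLOD1, PLOD2, P3H4 and ADAMTS14. COL6A3 and LOXL1 fell at the earlier step alone, P3H1 rose and then fell, and COL8A1 and PCOLCE2 were called at neither step. Single libraries decided some of these calls. COL8A1 fell at the last step without 500 nM replicate 1 (log2 -0.34, adjusted p = 0.00209) or 50 nM replicate 1 (log2 -0.30, adjusted p = 0.0348), and P3H4 at the earlier step without 5 nM replicate 2 (log2 -0.28, adjusted p = 0.0491). The last-step fall of P3H2 was lost without 500 nM replicate 3 (log2 -0.13, adjusted p = 0.439), 50 nM replicate 2 (log2 -0.20, adjusted p = 0.191) or 50 nM replicate 3 (log2 -0.19, adjusted p = 0.223). With the 2 groups fitted alone, the last-step falls of COL6A2 (log2 -0.70, adjusted p = 0.0568), COL12A1 (log2 -0.75, adjusted p = 0.111) and P3H2 (log2 -0.25, adjusted p = 0.0835) were lost. Under DESeq2, those of P3H2 (adjusted p = 0.133) and PLOD3 (adjusted p = 0.0511) were.

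Set per kilobase of annotated exon, the order of levels in DMSO spheroids was led by COL6A1 with 1259 normalised reads per kb. PLOD1 (654) and COL6A2 (595) came next, and their 3 DMSO libraries did not overlap with each other or with COL6A1. CRTAP (524), SERPINH1 (494) and LOXL2 (479) followed, each overlapping its neighbour in that order, ahead of COL5A1 (402). COL4A1, COL6A3 and COL4A5 overlapped one another at 23.3, 23.1 and 21.9 reads per kb. At 500 nM, COL6A1 was at 438 reads per kb, below PLOD1 at 556, and its libraries overlapped those of CRTAP, which averaged 480.2. The overlap came from replicate 1, a library with fibroblast transcripts. Collagen VI chains differed in level throughout, with COL6A3 at 5.03 and COL6A2 at 165 reads per kb at 500 nM. These means include replicate 1, which was the highest 500 nM library of COL6A1, COL6A2 and COL6A3. Exon lengths came from an annotation of all transcripts, so a gene that uses short isoforms is placed too low.

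**Figure D5:**
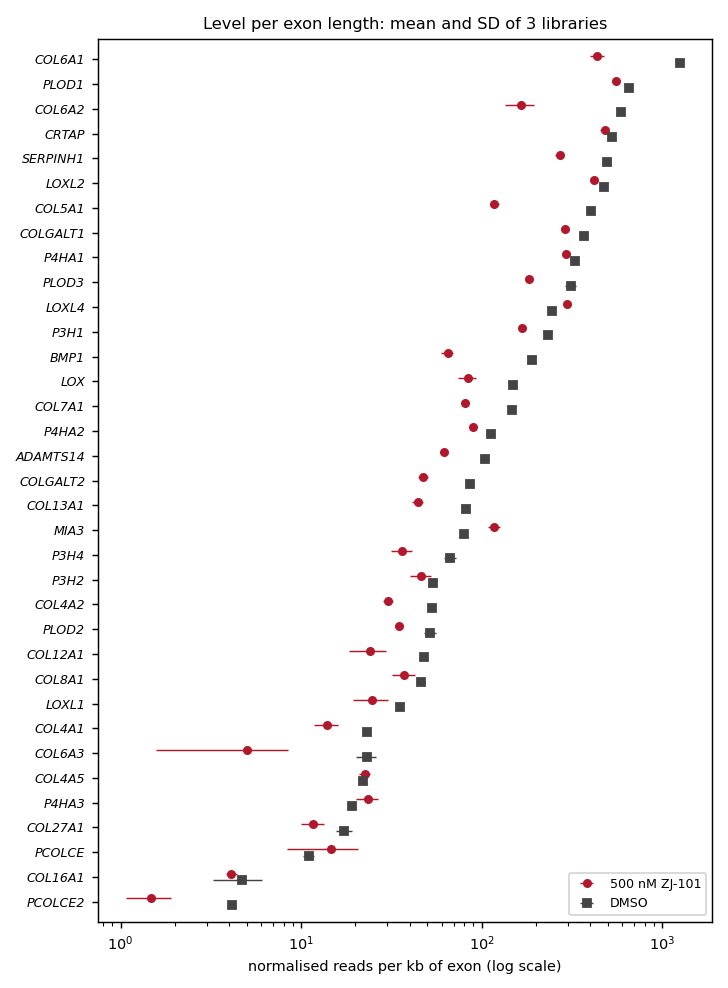
Normalised reads per kb of exon (log axis) for the 35 tested genes, ordered by the DMSO level, as mean and SD of 3 libraries at 500 nM ZJ-101 (red circles) and in DMSO (grey squares). Red lies left of grey for most genes and right of it for LOXL4, MIA3, P4HA3, PCOLCE and COL4A5. COL6A1 is at 438 reads per kb at 500 nM and 1259 in DMSO.

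Genes of the same route that are not among the 36 were read for context. Of 31 other collagen chains 10 were tested, and at 500 nM 4 fell and 0 rose by limma-trend (1 higher at an unadjusted p under 0.05, 1 by DESeq2, 0 by edgeR), with a median log2 of -0.19. At this dose 16.2% of all genes fell and 16.2% rose. The 4 that fell were COL18A1 of basement membranes (3.63-fold lower), the hemidesmosome collagen COL17A1, COL15A1 and COL8A2. COL17A1 had 210.0, 169 and 178 normalised reads at 500 nM against 457, 409 and 444 in DMSO, 2.35-fold lower (adjusted p = 3.86e-28, limma). The list holds 4 of the fibroblast markers, COL1A1, COL1A2, COL3A1 and COL5A2. COL3A1 had 207, 20.8 and 22.9 at 500 nM against 1.09, 0.0 and 2.01 in DMSO, which was not called with all libraries (adjusted p = 0.0503, limma). It was called higher without the 3 libraries with fibroblast transcripts (log2 3.63, adjusted p = 1.1e-05, limma). The 500 nM libraries left in that fit still held the fibroblast markers DCN, THY1 and POSTN, which were at 0 in every DMSO library. The part of fibroblast transcripts in this rise was not tested. COL1A1 had 2302, 216 and 232 at 500 nM against 138, 139 and 139.6 in DMSO and was called neither with all libraries (adjusted p = 0.327, limma) nor without the 3 (adjusted p = 0.295). Of 22 tested folding and export factors 11 fell and 6 rose (median log2 -0.07), beside the same shares of all genes. The 4 with the smallest p fell, the prolyl isomerase gene FKBP9 by 1.96-fold, P4HB (the shared subunit of prolyl 4-hydroxylase) by 1.29-fold, PDIA3 by 1.28-fold and the coat gene SEC31A by 1.29-fold. MIA2, whose product partners TANGO1, was looked up after its value was seen, and it had 704, 793 and 777 at 500 nM against 498, 509 and 552 in DMSO, 1.46-fold higher (adjusted p = 3.91e-14, limma). Of 4 tested processing and crosslinking enzymes, the proprotein convertase gene FURIN fell 1.89-fold (adjusted p = 9.62e-35, limma), while PXDN, which crosslinks collagen IV, rose 1.29-fold (adjusted p = 1.35e-18, limma) and the transglutaminase gene TGM2 rose 1.16-fold (adjusted p = 1.25e-09, limma).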

How the data were processed

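Poly(A) RNA of MDA-MB-231 spheroids was sequenced as paired-end reads in 15 libraries. According to the study's methods, HISAT2 was used for alignment to hg38, htseq-count for counting per gene and DESeq2, on Galaxy, for comparison. Their versions, the annotation release and whether strand was used are not given in the sources used here. The authors deposited signal values, that is, counts of reads per gene after division by a size factor from DESeq2. In each library 100% of the values were whole multiples of 1 step (tolerance 0.001), so reads could be recovered for count tests. The authors also deposited DESeq2 comparisons of each dose with DMSO (mean, log2 fold change with error, Wald score, p-value and adjusted p), which were not used.

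Genes averaging at least 10 were tested on log2 of the signal plus a pseudocount of 1 with limma 3.58.1 (trend and robust), with 5 groups in 1 fit and Benjamini-Hochberg adjustment over all 15233 genes. Intervals are at 95%. Log2 fold changes of low genes are understated by the pseudocount. With edgeR 4.0.16 the common biological coefficient of variation came to 3.72%. No 2 libraries of a group differed by so little as to be 1 library (chi-square per degree of freedom 1.52 to 2.24).

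Positions, exon lengths and overlaps came from GENCODE release 44, matched by symbol, and promoters from RefSeq (GRCh38.p14). Libraries are printed for genes called at 50 or 500 nM with an absolute log2 fold change of at least 0.58 and for genes called in opposite directions, and up to 4 genes per further list with the smallest p at 500 nM are named. The genes and lists were chosen with earlier results of these data known. Alternatives were TMM scaling, no filter, a mean of at least 50, a pseudocount of 5, a fit of only the 2 groups compared, DESeq2 1.42.0 and edgeR (both on recovered reads), a replicate block, leaving out each library, and leaving out the 3 libraries with fibroblast transcripts together. Other software was Python 3.11.15 (pandas 2.3.3, numpy 2.4.6, matplotlib 3.10.9) and R 4.3.3.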

Additional observations from a re-analysis of the deposited data

How the results depend on the processing

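Of 1469 log2 fold changes of called genes recomputed under an alternative, 1411 kept their direction and their side of the threshold, 58 kept the direction but missed the threshold, and none turned round. At 500 nM, 26 of the 29 falls and both rises held in every alternative run. At 50 nM, 10 of 13 falls and 3 of 4 rises did. The count of genes higher at 5 nM than in DMSO, 4 with all libraries, was 1 to 3 when single libraries were left out (lowest without DMSO replicate 3), and the count lower was 1 (COL6A3) in place of 0 without the 3 libraries with fibroblast transcripts. The count higher at 5 nM than at 0.5 nM, 2, was 1 with no filter, 1 with DESeq2 and 1 to 3 when single libraries were left out (highest without 5 nM replicate 2). The count higher at 50 nM than at 5 nM, 3, was 5 with edgeR, which added COL4A5 and CRTAP.

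No shared shift by replicate number was seen. The correlation of deviations between same-numbered libraries was -0.12 to 0.18 over 30 pairs (median 0.00), beside -0.18 to 0.17 over the other pairs. These values cannot show how the plates were handled. With the replicate number as a block, 29 genes fell and 2 rose at 500 nM. At 50 nM 14 fell in place of 13, since COL4A1 was added, and the other counts were the same. With 3 plates per group and these depths, the smallest fall called at 500 nM was the 1.09-fold fall of CRTAP, and it was lost without 500 nM replicate 1.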

Other observations

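Genes that bind, take up or degrade collagen also changed at 500 nM. Of 7 tested collagen receptors and uptake genes 4 fell and 0 rose by limma-trend (0 higher at an unadjusted p under 0.05, by DESeq2 or by edgeR), with a median log2 of -0.20, beside -0.00 over all genes. At this dose 16.2% of all genes fell and 16.2% rose. MRC2, which encodes the uptake receptor Endo180, had 465, 388 and 396 normalised reads at 500 nM against 1838, 1816 and 1802 in DMSO, 4.38-fold lower (log2 -2.13 ± 0.05, adjusted p = 1.67e-64, limma). The integrin gene ITGA1 had 164, 164 and 181 at 500 nM against 348, 381 and 359 in DMSO, 2.13-fold lower (adjusted p = 4.28e-23, limma). ITGB1 and ITGA2 fell 1.21-fold and 1.15-fold.

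Of 9 tested collagen-degrading proteases and inhibitors 5 fell and 2 rose (median log2 -0.16), beside 16.2% of all genes in each direction. Without the 3 libraries with fibroblast transcripts, 4 fell and 3 rose, and the 3 were MMP2, TIMP2 and TIMP3. MMP2 had 115, 18.9 and 28.7 normalised reads at 500 nM against 7.62, 2.71 and 5.02 in DMSO. Its highest libraries at 0.5, 5 and 500 nM were those with fibroblast transcripts. The 500 nM libraries left in also held the fibroblast markers DCN, THY1 and POSTN. The membrane collagenase gene MMP14 had 2949, 2919.7 and 2792 normalised reads at 500 nM against 7369, 6769 and 7049 in DMSO, 2.45-fold lower (adjusted p = 1.71e-65, limma). MMP15 fell 2.46-fold and the interstitial collagenase gene MMP1 1.69-fold, while the inhibitor gene TIMP3 rose 1.09-fold. Of 8 tested genes of proline and ascorbate supply 4 fell and 2 rose (median log2 -0.06), beside the same shares, and 2 fell and 2 rose by DESeq2. The proline synthesis genes PYCR1 and ALDH18A1 fell, with log2 fold changes of -0.58 and -0.39. SLC2A1, whose product carries glucose and dehydroascorbate, had 7661, 7782 and 7707 at 500 nM against 5159, 4777 and 4907 in DMSO, 1.56-fold higher (adjusted p = 4.41e-24, limma).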
